A study of Mus musculus with 48 samples.

Results

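The 35 genes described here encode cytosolic and mitochondrial chaperones and their direct partners, and were listed by symbol. The list holds 11 genes of the HSP70 system, 9 of the HSP90 system, 7 subunits of the cytosolic chaperonin CCT, 5 mitochondrial chaperones and 3 other genes. Of the 35, 32 had a probe set that names them alone, out of 18193 such genes on the array, and each was represented by its probe set with the highest mean signal. Hsp90ab1, the constitutive HSP90 isoform, and Hsf1, the heat shock transcription factor, were not analysed here, nor was Ptges3, the HSP90 cochaperone p23, whose probe sets name several genes. Hspa1a and Hspa1b, the stress-inducible HSP70 genes, and Bag3, an HSP70 cochaperone induced by stress, did not pass the filter on low signals, so that 29 of the listed genes were among the 12764 genes tested. The filter asked that at least 1 group mean exceed a signal of 14. Of the 29, Hspb1, a small heat shock protein gene, and Serpinh1, the collagen chaperone of the endoplasmic reticulum, stayed at signals of 11 to 44 and 3 to 31 on all arrays. The other 27 had every array at 167 or more.

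HSP70 proteins bind exposed stretches of unfolded proteins in a cycle driven by ATP: J-domain proteins (DNAJ) deliver clients and stimulate ATP hydrolysis, and nucleotide exchange factors such as HSP110 proteins and BAG1 reset the cycle. The adaptor STIP1 (HOP) passes clients to HSP90, which completes the maturation of kinases and steroid receptors with AHSA1, CDC37, CHORDC1 and the immunophilins FKBP4 and FKBP5. The BCR/ABL kinase is a known HSP90 client, and unliganded estrogen receptor is held in HSP90 complexes. CCT, a ring of related subunits, folds actin and tubulin, and in the mitochondrial matrix mortalin (HSPA9), the HSP60 and HSP10 chaperonin pair (Hspd1, Hspe1), the HSP90 relative TRAP1 and the J protein DNAJA3 serve imported proteins. Under proteotoxic stress heat shock factor 1 raises transcription of many of these genes.

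The data are 48 Affymetrix MOE430_2 arrays of 32D cells, a mouse myeloid progenitor line, that all express the p210 BCR/ABL oncoprotein. Retroviral MigRI vectors brought in a C/EBPα-ER fusion (C/EBPα joined to an estrogen receptor domain), either wild type (WT), K298E, called deficient in DNA binding, or Δ(177-191), called deficient in binding CDK2 and CDK4, or the empty vector. C/EBPα is a transcription factor needed for granulocyte differentiation, and the ligand 4-hydroxytamoxifen (4-HT) was given to all 4 lines, with 3 arrays each at 0, 6, 9 and 12 h, in medium with fetal bovine serum. Each construct is 1 transduced line, with no untreated culture at a later time, and since the labels leave unclear whether the 3 arrays are separate experiments, p-values cover the spread of these arrays alone.

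Arrays share 1 scale, with median signals of 11 to 19 and 0.324% to 3.40% of probe sets at 0, and no pair of arrays was identical. On the first principal component, with 55.0% of the variance, the Δ(177-191) arrays stood apart from all others already at 0 h (33.6 to 34.3, against -21.2 to -14.1 in WT and K298E cells and -22.1 to -21.9 in vector cells). The probe set of Esr1, the estrogen receptor gene, had 0 h means of 3263 in Δ(177-191), 2475 in WT and 1439 in K298E cells, against 18.3 in vector cells. Of the markers of myeloid progenitors, Ptprc, Csf2rb, Spi1, Il3ra and Prtn3 had group means of 146 or more in all 16 groups, while Kit, Cd34 and Elane stayed at 20 or less. Mpo, the myeloperoxidase gene, had means of 16.3, 27.3, 160 and 385 at 0, 6, 9 and 12 h in WT cells and of 27.7 or less in the other lines. Ctsg, the cathepsin G gene, had means of 31, 64.7, 95 and 143 at the same times in WT cells, against 16 to 39.3 in K298E, 5 to 16 in Δ(177-191) and 2.33 to 5 in vector cells. The part of the increase of Mpo and Ctsg in the WT results was not tested. Mpo and Ctsg do not stand for all of these markers, and the time course of Prtn3 is not given here. The summed signal of the 10 myeloid genes was 5592 to 7896 in the WT groups and 4912 to 6903 in the K298E groups. It was 6305 to 8484 in the Δ(177-191) groups and 3488 to 4175 in the vector groups. The fibroblast and erythroid markers had no group mean above 25. Of the lymphoid markers Cd3e and Cd79a stayed at 18.3 or less, and Cd3d reached 59.7 in Δ(177-191) cells at 12 h. The summed signal of the 3 lymphoid genes was 16 to 71 in the Δ(177-191) groups and 19.3 to 31.3 in the vector groups. The part of other cells in the results below was not tested.

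Promoters were searched for the unit that heat shock factor binds, inverted repeats of GAA. RefSeq windows of 250 bases upstream of the start (assembly GRCm38.p6) were at hand for 29 of the 35 genes. A pair of facing or opposed units (GAANNTTC or TTCNNGAA) was searched on both strands, on which each reads the same. The patterns can overlap by 1 unit. A pair was present in 12 of the 29, namely Cct2, Cct5, Cdc37, Dnaja1, Dnajb6, Fkbp4, Hspa1a, Hspa1b, Hspb1, Hspd1, Hspe1 and Hsph1, against 14.5% of 27025 genes. A run of 3 units was present in Dnajb6, Hspd1 and Hspe1, against 0.514% of genes. Hspd1 and Hspe1 lie head to head and share an 18-base run of 4 units at chr1:55088059-55088076, which ends 127 bases before the Hspd1 start and 72 bases before the Hspe1 start. The stretches below show the shared run on the Hspe1 strand (chr1:55088038-55088147, plus strand), the 3-unit run of Dnajb6 (chr5:29735808-29735897, plus strand) and the pair of Hsph1 (chr5:149636337-149636436, minus strand), with the units of each match in capitals. Beside them stand Hspa1b, which has a pair and stayed near the floor of the signal (chr17:34959239-34959378, minus strand), and Ahsa1, which rose in WT and vector cells with no such pair in its window (chr12:87266588-87266727, plus strand).
Hspe1: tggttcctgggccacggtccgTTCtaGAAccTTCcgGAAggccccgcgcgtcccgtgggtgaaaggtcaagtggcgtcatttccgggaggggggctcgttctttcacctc
Dnajb6: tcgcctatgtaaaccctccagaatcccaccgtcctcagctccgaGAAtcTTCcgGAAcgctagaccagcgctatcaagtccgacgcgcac
Hsph1: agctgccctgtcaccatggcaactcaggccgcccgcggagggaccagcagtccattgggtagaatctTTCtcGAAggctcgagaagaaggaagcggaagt
Hspa1b: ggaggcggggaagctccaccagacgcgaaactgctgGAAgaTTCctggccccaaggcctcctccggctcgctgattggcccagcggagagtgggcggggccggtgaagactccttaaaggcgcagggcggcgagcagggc
Ahsa1: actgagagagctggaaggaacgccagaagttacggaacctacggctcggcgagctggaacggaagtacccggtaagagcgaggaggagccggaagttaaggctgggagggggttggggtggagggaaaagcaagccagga
A match says only that these letters are present. Of the genes with a window that were tested, 5 of 10 with a pair and 7 of 15 without one rose at 12 h in WT cells, and 6 of 10 and 7 of 15 rose in vector cells. Of all 12764 genes tested, 1885 rose at 12 h in WT and 982 in vector cells, which were not divided by the presence of a pair.

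At 12 h after 4-HT 12 of the 29 chaperone genes had risen in WT and 13 in vector cells, largely the same ones. In K298E cells rises were fewer at each time, and most of those at 6 h and 9 h no longer passed at 12 h. In Δ(177-191) cells 3 HSP70 system genes had risen and 8 genes had fallen, which were 2 HSP90 cochaperone, 3 CCT, 2 mitochondrial and 1 J protein gene of the HSP70 system. A gene was said to rise or fall where the limma test of 12 h minus 0 h gave an adjusted p under 0.05 over all 27167 probe sets tested. In WT cells 12 of the 29 rose at 12 h and 0 fell (14.8% of all genes tested rose and 16.2% fell). In K298E cells 1 rose and 0 fell (1.03% and 1.31% of all genes), and 4 genes had an unadjusted p under 0.05. Δ(177-191) cells had 3 rises and 8 falls (12.2% and 18.3%). In vector cells 13 rose and 0 fell (7.69% and 9.76%). Of these rises 12 were shared by WT and vector cells, which is 12 of 12 in WT and 12 of 13 in vector cells. How many of all genes that rose were shared by these lines was not computed. It cannot be told whether such sharing is particular to the listed genes. Cct5 passed in vector cells alone of the pair (0.28 ± 0.08, adjusted p = 0.0671 without vector replicate 1 of 0 h). The difference between these lines did not pass (relative change in WT -0.09 ± 0.11, adjusted p = 0.805). All 4 lines received 4-HT and time in culture, whose parts cannot be told apart here, nor can less RNA per cell and fewer cells of a kind. The count of 1 in K298E cells was 0 without K298E replicate 2 of 12 h or without replicate 1 or 2 of every group. That of 11 in Δ(177-191) cells was 7, 6 and 7 without replicate 1, 2 and 3 of every group, and that of 13 in vector cells was 8 without replicate 3.

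**Figure D1:**
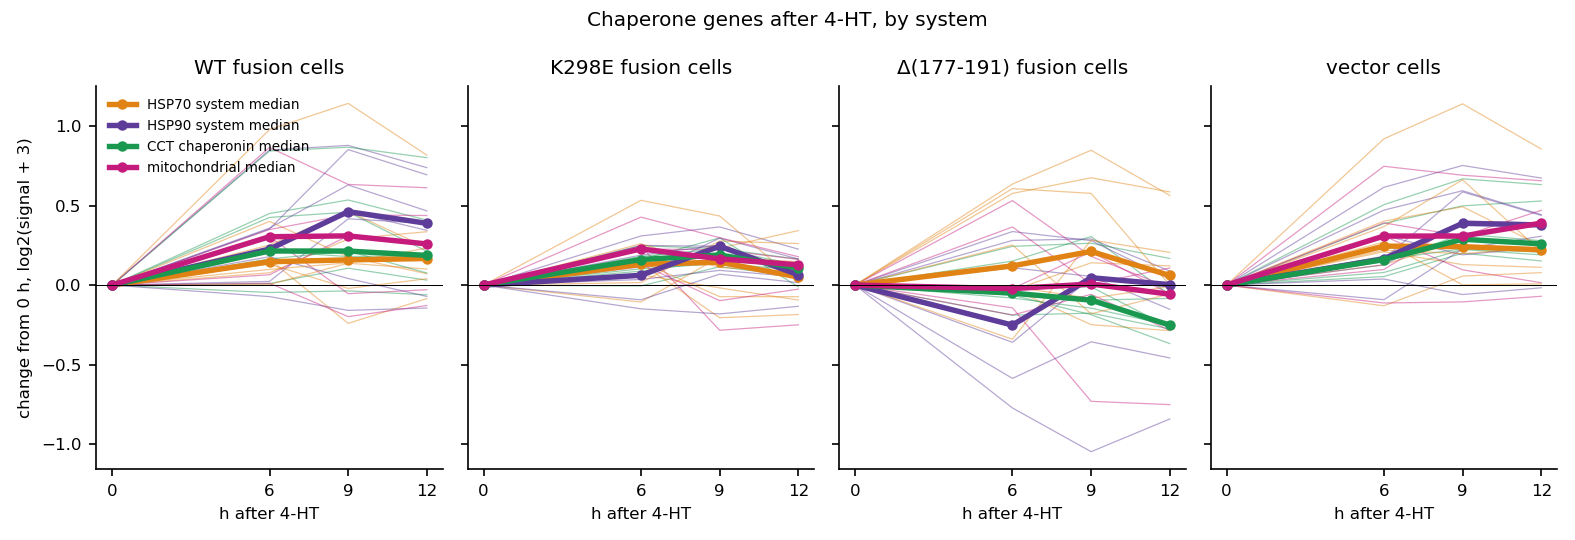
Change of each chaperone gene from 0 h on the log2(signal + 3) scale (thin lines, 27 genes with signals of 167 or more) and the median of each system (thick lines) against hours after 4-HT, by line, with means of 3 arrays at each point. At 12 h the HSP90 system median was 0.39 in WT cells, 0.06 in K298E and 0.00 in Δ(177-191) cells and 0.38 in vector cells.

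Part of these changes was present at 6 h. At 6 h 11 genes rose and 0 fell in WT cells (13.5% and 19% of all genes), 4 rose and 0 fell in K298E (5.45% and 7.04%), 9 rose and 5 fell in Δ(177-191) (12.2% and 18.3%) and 10 rose and 0 fell in vector cells (8.41% and 12%). At 9 h 14 rose and 1, Dnajb6, fell in WT cells (14.9% and 15.7%). In K298E cells 6 rose and 1, Dnaja3, fell (2.4% and 2.52%), in Δ(177-191) cells 7 rose and 4 fell (13.6% and 18.8%) and in vector cells 13 rose and 0 fell (9.1% and 10%). The genes that rose in WT cells at all 3 times were Ahsa1, Cct3, Cct8, Cdc37, Chordc1, Hspd1, Hsph1 and Stip1, and those in vector cells were the same without Cdc37 and Stip1. In K298E cells the 4 genes of 6 h were Hsph1 (0.53 ± 0.07), Hspd1 (0.43 ± 0.11), Ahsa1 (0.31 ± 0.07) and Chordc1 (0.25 ± 0.07), and at 12 h none of these passed. Dnaja1 and Hsph1 rose and Fkbp4 and Fkbp5 fell at all 3 times in Δ(177-191) cells. Median changes of the HSP90 system over 6, 9 and 12 h were 0.23, 0.46 and 0.39 in WT cells, 0.06, 0.24 and 0.06 in K298E cells, -0.25, 0.05 and 0.00 in Δ(177-191) cells and 0.17, 0.39 and 0.38 in vector cells. For CCT they were 0.21, 0.21 and 0.19 in WT, 0.16, 0.19 and 0.11 in K298E, -0.05, -0.09 and -0.25 in Δ(177-191) and 0.16, 0.29 and 0.26 in vector cells. All 9 treated arrays lay above every 0 h array for 10 genes in WT cells (10.7% of all genes), 5 in K298E (2.26%), 3 in Δ(177-191) (8.48%) and 11 in vector cells (7.95%). They lay below for Fkbp4, Fkbp5 and Dnaja3 in Δ(177-191) cells (13.4% of all genes) and for 0 genes in the other lines (13.5% in WT cells, 3.31% in K298E and 10.7% in vector cells).

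Across the 27 genes above the floor, the change at 12 h in WT cells followed that in vector cells with a Pearson r of 0.92, against 0.45 for K298E and 0.45 for Δ(177-191) cells. These are descriptions across genes, which share arrays and are not independent. The change lay below that of vector cells for 18 of the 27 genes in WT cells, 23 in K298E and 24 in Δ(177-191) cells. Over all genes the median of this difference from vector cells was -0.04 for the Δ(177-191) line, -0.03 for the WT line and 0.02 for the K298E line. No share of all genes below vector cells and no r over all genes is given here. Whether the counts and r values are particular to the listed genes was not tested.

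**Figure D2:**
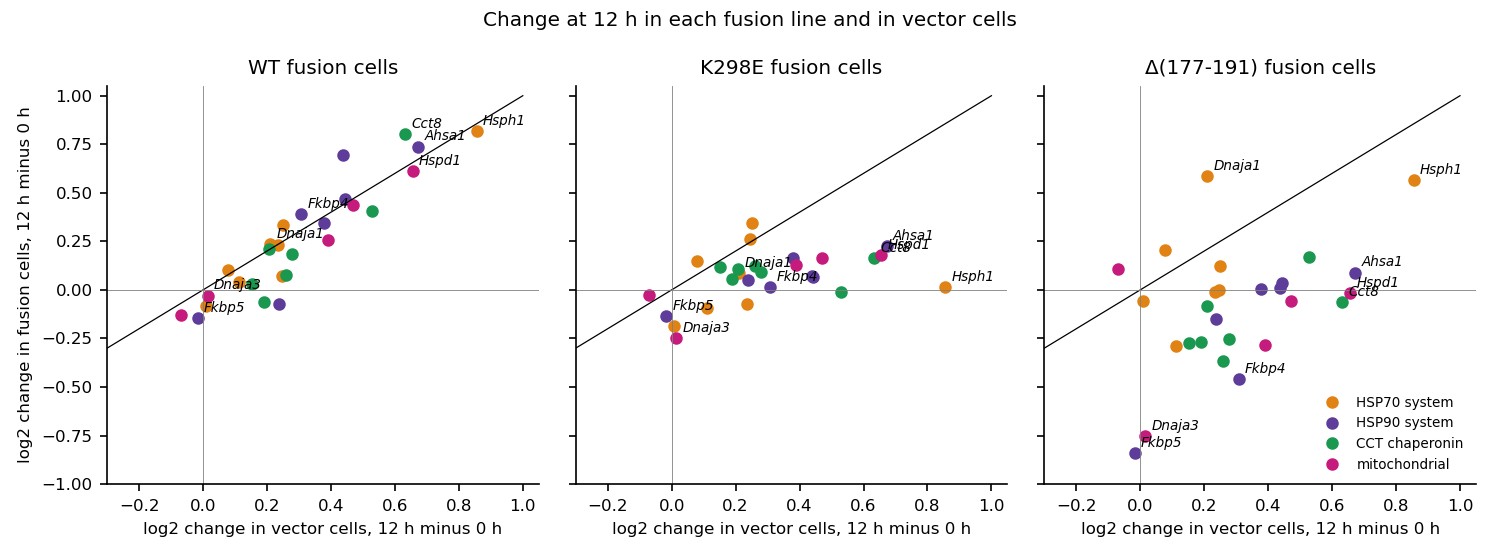
Change from 0 h to 12 h of 27 chaperone genes in each fusion line (vertical axis) against that in vector cells (horizontal axis), both on the log2(signal + 3) scale and coloured by system, with the line of equal change. WT points lie along the line (r = 0.92), K298E points run from -0.25 to 0.34, and most K298E and most Δ(177-191) points lie below the line.

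To set aside what vector cells shared, the change in vector cells was subtracted from that of each fusion line, which is called the relative change. Construct, transduced line and level of the fusion cannot be told apart in it. The relative changes of the 3 fusion lines share the vector arrays. In WT cells 0 of 29 genes passed at 12 h (7.22% of all genes passed in limma), 0 at 6 h (6.26%) and 0 at 9 h (6.11%), with 2, 1 and 2 genes at an unadjusted p under 0.05. The gene with the highest relative change among the 27 was the adaptor gene Stip1, at 0.26 ± 0.11 (adjusted p = 0.241) with a 95% interval of 0.03 to 0.48. The lowest was Hsp90aa1, the inducible HSP90 isoform, at -0.31 ± 0.19 (adjusted p = 0.499) with an interval of -0.69 to 0.07. For Hsph1 the interval was -0.24 to 0.16, for Ahsa1 -0.13 to 0.26 and for Hspd1 -0.36 to 0.28.

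In K298E cells 5 genes were lower relative to vector cells at 12 h and 0 higher (2.26% and 3.38% of all genes). These were Hsph1 (-0.84 ± 0.10, adjusted p = 7.46e-08), the CCT subunit gene Cct3 (-0.54 ± 0.10, adjusted p = 0.000358), the HSP90 activator gene Ahsa1 (-0.45 ± 0.10, adjusted p = 0.00231), the HSP90-binding Chordc1 (-0.38 ± 0.10, adjusted p = 0.0231) and Stip1 (-0.37 ± 0.11, adjusted p = 0.0495). All 5 rose in vector cells and 0 of the 5 fell in K298E cells themselves. At 6 h 1 gene, Hsph1 (-0.39 ± 0.10), was lower and 0 higher (0.118% and 1.19% of all genes). At 9 h 3 were lower and 0 higher (1.98% and 3.22%), namely Hsph1 -0.71 ± 0.10, Ahsa1 -0.39 ± 0.10 and Chordc1 -0.35 ± 0.10. With the mean of all its probe sets in place of the brightest one, Ahsa1 stood at 0.0621 at 12 h. The calls of Stip1 and Chordc1 depended on single arrays. That of Stip1 was lost without any 1 of 10 of the 12 arrays compared, all but replicate 2 of K298E cells at 0 h and at 12 h (adjusted p of up to 0.143). That of Chordc1 was lost without vector replicate 1 at 0 h, vector replicates 1 or 3 at 12 h, K298E replicate 2 at 0 h or K298E replicate 3 at 12 h (up to 0.0751). The count of 5 was 3 without vector replicate 1 at 0 h, vector replicate 1 or 3 at 12 h or K298E replicate 3 at 12 h. It was 2 without replicate 1, 2 or 3 of every group, 1 with arrays centred on their medians and 8 with array weights.

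In Δ(177-191) cells 17 genes were lower relative to vector cells at 12 h and 0 higher (12.4% and 9.97% of all genes). They were 6 of 7 HSP90 system genes, 5 of 7 CCT genes, 4 of 5 mitochondrial genes and 2 of 8 HSP70 system genes. The median relative change was -0.43 for the HSP90 system, -0.46 for CCT, -0.67 for the mitochondrial genes and -0.19 for the HSP70 system, against -0.04 for all genes. In WT cells the medians were 0.02, -0.12, -0.04 and -0.02, and in K298E cells -0.29, -0.14, -0.26 and -0.16, against -0.03 and 0.02 for all genes. Of the 17, 9 rose in vector cells and did not fall in Δ(177-191) cells, 5 fell in Δ(177-191) cells and did not pass in vector cells (Cct4, Dnaja2, Dnaja3, Fkbp5 and Tcp1), and 3 did both (Cct5, Fkbp4 and Trap1). At 6 h 7 genes were lower and 1 higher (10.1% and 8.18% of all genes) and at 9 h 14 lower and 0 higher (12.7% and 9.68%). The higher gene was Hspa9, mortalin (0.48 ± 0.12 at 6 h). Without replicate 2 of every group the count of 17 was 9, without replicate 3 it was 9, and with arrays centred on their medians it was 8.

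**Figure D3:**
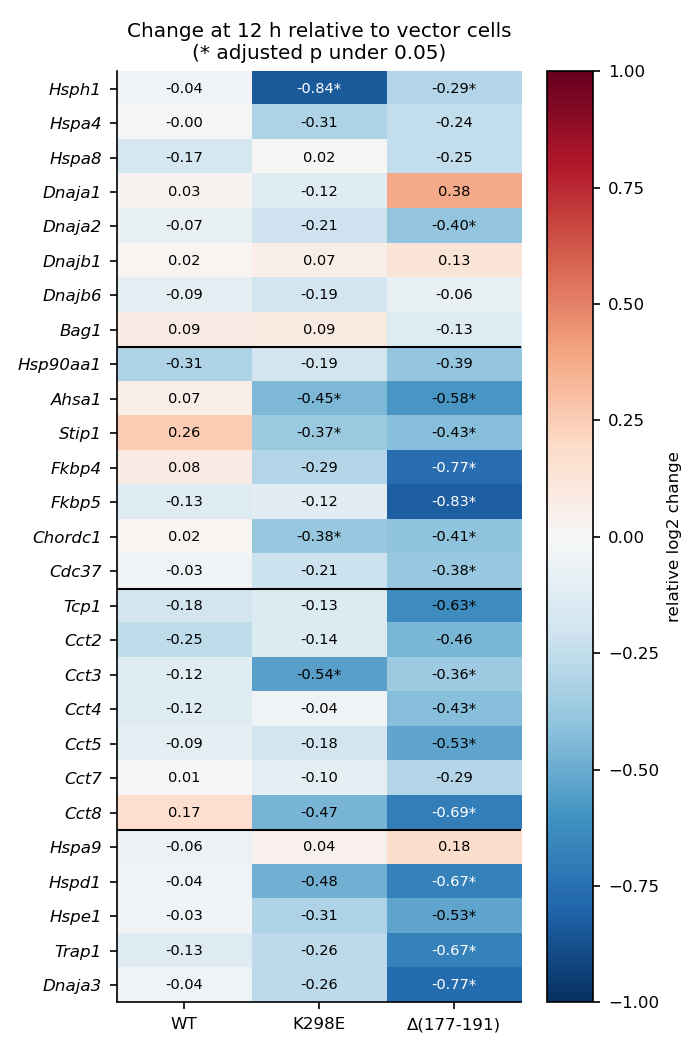
Relative change at 12 h, the change from 0 h minus that of vector cells on the log2(signal + 3) scale, for 27 chaperone genes (rows, ordered by system: HSP70, HSP90, CCT, mitochondrial) in WT, K298E and Δ(177-191) cells (columns), with an asterisk where the adjusted p was under 0.05. No gene has an asterisk in WT cells, 5 have one in K298E and 17 in Δ(177-191) cells.

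In the HSP70 system Hsph1, which encodes the HSP110 nucleotide exchange factor, had the largest rise of the listed genes at 12 h in WT and in vector cells. Hsph1 signals in WT cells were 314, 368 and 341 at 0 h, 664, 694 and 662 at 6 h, 761, 766 and 738 at 9 h and 595, 633 and 579 at 12 h. Hsph1 signals in K298E cells were 450, 499 and 501 at 0 h, 673, 734 and 694 at 6 h, 664, 620 and 678 at 9 h and 497, 471 and 497 at 12 h. In WT cells all 9 treated arrays lay above every 0 h array, whereas in K298E cells the 12 h arrays fell among those of 0 h. Hsph1 signals in Δ(177-191) cells were 398, 396 and 382 at 0 h, 621, 639 and 573 at 6 h, 683, 687 and 756 at 9 h and 596, 608 and 541 at 12 h. Hsph1 signals in vector cells were 329, 328 and 336 at 0 h, 601, 659 and 628 at 6 h, 773, 735 and 693 at 9 h and 662, 605 and 543 at 12 h. In these lines, too, all 9 treated arrays lay above the 0 h arrays. At 12 h Hsph1 changed by 0.82 ± 0.07 (adjusted p = 9.37e-13) in WT cells, 0.02 ± 0.07 (adjusted p = 0.977) in K298E and 0.56 ± 0.07 (adjusted p = 1.24e-08) in Δ(177-191) cells and by 0.86 ± 0.07 (adjusted p = 1.57e-12) in vector cells. The K298E line started 0.54 ± 0.07 above vector cells at 0 h. Its other probe set gave a relative change of -0.94 in K298E cells (adjusted p = 1e-05) and of -0.22 in Δ(177-191) cells (adjusted p = 0.36), where the brighter one gave -0.29 ± 0.10 (adjusted p = 0.0327). That last call was lost without any 1 of 7 arrays, vector replicates 1 or 2 at 0 h and at 12 h, Δ(177-191) replicates 1 or 2 at 0 h and replicate 3 at 12 h (adjusted p of up to 0.153).

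Of the other 7 tested HSP70 genes 4 passed at 12 h in at least 1 line. Bag1, the nucleotide exchange factor BAG1, rose at 12 h in WT (0.34 ± 0.07), K298E (0.34 ± 0.07) and vector cells (0.25 ± 0.07), and was the one gene of the 29 that rose in K298E cells at that time. Its adjusted p in K298E cells was 0.0517 without replicate 2 of 12 h, and in vector cells up to 0.0931 without replicate 1 of 0 h or of 12 h. The J protein gene Dnaja1 rose in Δ(177-191) cells (0.59 ± 0.12, adjusted p = 0.00023), with a mean of 1886 ± 151 at 12 h against 1255 ± 103 at 0 h (SD, n = 3 each). In vector cells these means were 1708 ± 134 and 1476 ± 82.3, and the relative change of 0.38 ± 0.17 did not pass (adjusted p = 0.153). Dnaja1 also rose in vector cells at 6 h (0.37 ± 0.12) and 9 h (0.66 ± 0.12) and in WT cells at 9 h (0.46 ± 0.12). Dnajb1, the main J protein of the heat shock response, was at 0.21 ± 0.07 in Δ(177-191) cells at 12 h (adjusted p = 0.0359) after a fall at 6 h (-0.34 ± 0.07). The call at 12 h was lost without replicates 1 or 3 of 0 h or 1 or 2 of 12 h (adjusted p of up to 0.16). Dnaja2, another J protein gene, fell in Δ(177-191) cells (-0.29 ± 0.08, adjusted p = 0.00403) and was lower relative to vector cells (-0.40 ± 0.11, adjusted p = 0.00704). Hspa8, the constitutive HSP70, rose in Δ(177-191) cells at 6 h (0.61 ± 0.20) and at 12 h stood at 0.07 ± 0.20 in WT, 0.26 ± 0.20 in K298E, within -0.40 to 0.40 (95% interval) in Δ(177-191) cells and at 0.25 ± 0.20 in vector cells, none past the threshold. Its probe set is of a kind that can bind related sequences (suffix x_at), and its signals ranged from 3684 to 9973. Hspa4, an HSP110 relative, passed in no line at 12 h with its brightest probe set (relative change in Δ(177-191) cells -0.24 ± 0.13). Both of its other tested probe sets were lower there (-0.85, adjusted p = 0.0043, and -0.88, adjusted p = 0.043). Dnajb6 passed at 12 h in no line, with relative changes of -0.09 in WT cells, -0.19 in K298E and -0.06 in Δ(177-191) cells. Hspa1a, Hspa1b and Bag3 had no array above 18, 20 and 31 in any line, so no change of the stress-inducible HSP70 genes was detectable.

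In the HSP90 system the immunophilin genes Fkbp4 and Fkbp5 fell in Δ(177-191) cells. Fkbp4 signals in Δ(177-191) cells were 633, 647 and 656 at 0 h, 415, 472 and 402 at 6 h, 545, 454 and 515 at 9 h and 509, 421 and 481 at 12 h. Fkbp4 signals in WT cells were 764, 769 and 754 at 0 h, 762, 819 and 745 at 6 h, 980, 1095 and 985 at 9 h and 1043, 992 and 963 at 12 h. All 9 treated Δ(177-191) arrays lay below every 0 h array. The WT arrays of 9 h and 12 h all lay above those of 0 h. Fkbp4 signals in K298E cells were 905, 911 and 941 at 0 h, 850, 877 and 858 at 6 h, 1055, 955 and 889 at 9 h and 879, 982 and 928 at 12 h. Fkbp4 signals in vector cells were 821, 896 and 841 at 0 h, 790, 801 and 807 at 6 h, 989, 1047 and 961 at 9 h and 1070, 1028 and 1068 at 12 h. Vector cells, too, had all 9 h and 12 h arrays above those of 0 h, and in K298E cells they overlapped with 0 h. Fkbp4, which encodes FKBP52, changed at 12 h by 0.39 ± 0.07 (adjusted p = 3.74e-05) in WT cells, 0.02 ± 0.07 in K298E and -0.46 ± 0.07 (adjusted p = 2.16e-06) in Δ(177-191) cells and by 0.31 ± 0.07 (adjusted p = 0.00193) in vector cells. Its relative change in Δ(177-191) cells was -0.77 ± 0.10 (adjusted p = 1.48e-07). The line already had less at 0 h with this probe set (-0.40 ± 0.07 against vector cells), but the sign reversed with the mean of all Fkbp4 probe sets.

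Fkbp5 signals in Δ(177-191) cells were 662, 670 and 699 at 0 h, 392, 440 and 357 at 6 h, 284, 324 and 376 at 9 h and 365, 381 and 383 at 12 h. Fkbp5 signals in WT cells were 555, 597 and 576 at 0 h, 480, 641 and 533 at 6 h, 518, 517 and 511 at 9 h and 556, 514 and 494 at 12 h. Every treated Δ(177-191) array lay below 450 and every array of 0 h above 650, whereas in WT cells 7 of 9 treated arrays lay below every array of 0 h and 1 lay above. Fkbp5 signals in K298E cells were 703, 727 and 761 at 0 h, 677, 708 and 594 at 6 h, 620, 664 and 647 at 9 h and 655, 672 and 669 at 12 h. Fkbp5 signals in vector cells were 690, 652 and 711 at 0 h, 678, 731 and 699 at 6 h, 638, 672 and 659 at 9 h and 710, 686 and 634 at 12 h. Neither of these lines passed at 12 h. Fkbp5, the gene of FKBP51, is a classic target of glucocorticoid and other steroid receptors and fell by 0.84 ± 0.08 on the log2 scale in Δ(177-191) cells (adjusted p = 6.05e-11). Its relative change there was -0.83 ± 0.12 (adjusted p = 6.83e-07), and another probe set gave -0.81 (adjusted p = 0.00011). The change was present at 6 h (-0.81 ± 0.12) and 9 h (-0.99 ± 0.12).

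Stip1, the adaptor between HSP70 and HSP90, rose in WT cells at all 3 times and in vector cells at 9 h and 12 h, did not pass in K298E cells and fell in Δ(177-191) cells at 6 h (-0.25 ± 0.08). Stip1 signals in WT cells were 422, 397 and 412 at 0 h, 503, 545 and 527 at 6 h, 755, 734 and 740 at 9 h and 650, 680 and 666 at 12 h. Stip1 signals in K298E cells were 615, 556 and 585 at 0 h, 664, 630 and 709 at 6 h, 737, 674 and 682 at 9 h and 580, 645 and 619 at 12 h. All 9 treated WT arrays lay above the 0 h arrays, as did 8 of 9 in K298E cells. Stip1 signals in Δ(177-191) cells were 451, 521 and 463 at 0 h, 371, 457 and 379 at 6 h, 436, 577 and 475 at 9 h and 507, 465 and 472 at 12 h. Stip1 signals in vector cells were 515, 489 and 539 at 0 h, 572, 541 and 620 at 6 h, 798, 743 and 779 at 9 h and 706, 670 and 717 at 12 h. In vector cells all 9 lay above and in Δ(177-191) cells 1 above and 3 below. At 12 h the change was 0.69 ± 0.08 (adjusted p = 2.27e-09) in WT cells, 0.07 ± 0.08 in K298E and 0.01 ± 0.08 in Δ(177-191) cells and 0.44 ± 0.08 (adjusted p = 6.4e-05) in vector cells. Its relative change in Δ(177-191) cells was -0.43 ± 0.11 (adjusted p = 0.0044).

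Ahsa1 rose in WT (0.74 ± 0.07, adjusted p = 6.89e-12) and vector cells (0.67 ± 0.07, adjusted p = 4.44e-10). Means at 12 h were 1477 ± 78.5 in WT and 1320 ± 67 in vector cells, against 884 ± 22.5 and 826 ± 21.9 at 0 h (SD, n = 3 each). In K298E cells it averaged 1249 ± 27.8 at 12 h and 1068 ± 41.7 at 0 h, and in Δ(177-191) cells 747 ± 37.2 and 702 ± 5.2, neither past the threshold at 12 h. In both of these lines Ahsa1 had risen at 6 h and 9 h. Its relative change in Δ(177-191) cells was -0.58 ± 0.10 (adjusted p = 7.75e-06). Chordc1 and Cdc37, the kinase-specific cochaperone gene, rose in WT (0.47 ± 0.07 and 0.34 ± 0.08) and vector cells (0.44 ± 0.07 and 0.38 ± 0.08). Chordc1 also rose in K298E and Δ(177-191) cells at 6 h and 9 h but not at 12 h. Cdc37 rose in K298E cells at 9 h and fell in Δ(177-191) cells at 6 h. Their relative changes in Δ(177-191) cells were -0.41 ± 0.10 (adjusted p = 0.00322) and -0.38 ± 0.12 (adjusted p = 0.0197). The call of Cdc37 was lost without vector replicate 3 of 0 h or 1 of 12 h or Δ(177-191) replicate 2 of 0 h or of 12 h (adjusted p of up to 0.104). Hsp90aa1 passed at 12 h in no line, with its brightest probe set at -0.39 ± 0.19 relative to vector in Δ(177-191) cells (adjusted p = 0.176), while another of its probe sets was lower there (-0.56, adjusted p = 0.027).

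**Figure D4:**
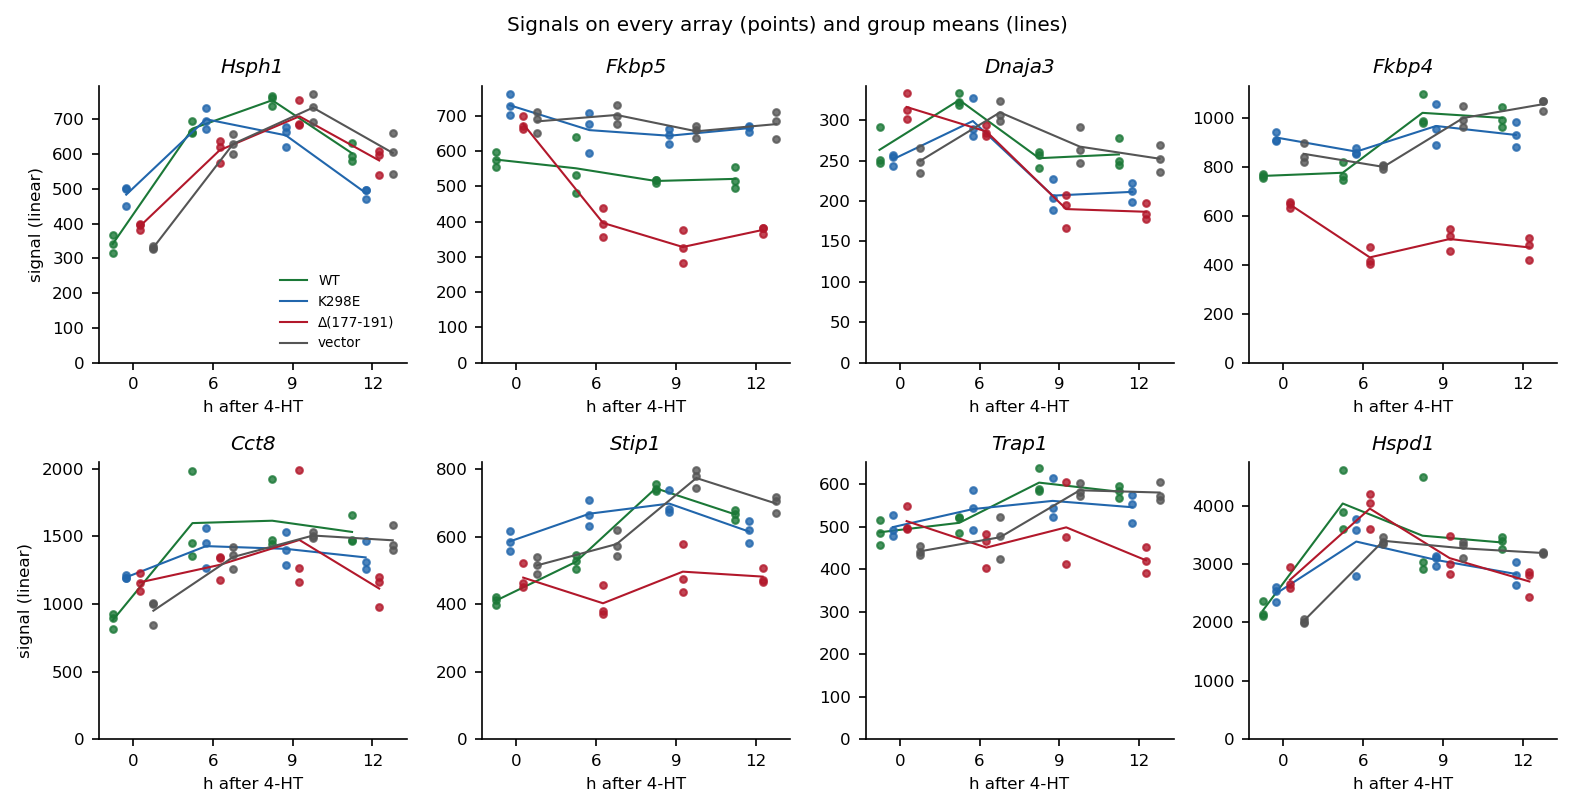
Signal on every array (points, 3 per group, linear axis from 0) and group means (lines) against hours after 4-HT for the 8 genes with the largest tested differences, with the 4 lines shifted sideways so that points do not cover each other. Fkbp5 and Fkbp4 of Δ(177-191) cells lie below all other lines after 4-HT, and Hsph1 of K298E cells returns to its 0 h level at 12 h.

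Among the subunits of CCT, Cct8 and Cct3 rose in WT and vector cells at 12 h, and Tcp1, Cct4 and Cct5 fell in Δ(177-191) cells. Cct8 signals in WT cells were 927, 812 and 896 at 0 h, 1987, 1358 and 1450 at 6 h, 1926, 1476 and 1446 at 9 h and 1467, 1475 and 1657 at 12 h. Cct8 signals in K298E cells were 1211, 1190 and 1192 at 0 h, 1268, 1565 and 1451 at 6 h, 1536, 1285 and 1402 at 9 h and 1255, 1312 and 1466 at 12 h. All 9 treated arrays lay above every 0 h array in WT and in K298E cells. Cct8 signals in Δ(177-191) cells were 1157, 1229 and 1093 at 0 h, 1341, 1175 and 1351 at 6 h, 1988, 1267 and 1166 at 9 h and 981, 1163 and 1198 at 12 h. Cct8 signals in vector cells were 998, 1010 and 842 at 0 h, 1257, 1420 and 1365 at 6 h, 1485, 1534 and 1500 at 9 h and 1434, 1396 and 1583 at 12 h. In vector cells all 9 lay above, and in Δ(177-191) cells 4 above and 1 below, with 1 array of 9 h at 1988. Cct8 changed at 12 h by 0.80 ± 0.13 (adjusted p = 4.38e-06) in WT cells, 0.16 ± 0.13 in K298E and -0.06 ± 0.13 in Δ(177-191) cells and by 0.63 ± 0.13 (adjusted p = 0.000434) in vector cells. The relative change in Δ(177-191) cells was -0.69 ± 0.18 (adjusted p = 0.00519). Cct3 rose by 0.41 ± 0.07 in WT and 0.53 ± 0.07 in vector cells and was at -0.01 ± 0.07 in K298E and 0.17 ± 0.07 in Δ(177-191) cells. It had risen in Δ(177-191) cells at 6 h and 9 h and in K298E cells at 9 h. All 9 treated Δ(177-191) arrays of Cct3 lay above every 0 h array. In Δ(177-191) cells Tcp1, the subunit CCT1, fell by 0.37 ± 0.11, Cct4 by 0.28 ± 0.09 and Cct5 by 0.25 ± 0.08. The mean of Tcp1 there was 2298 ± 126 at 12 h against 2964 ± 58.6 at 0 h, while vector cells had 3062 ± 78.2 and 2557 ± 28.9 (SD, n = 3 each).

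Relative to vector cells, the CCT genes past the threshold in Δ(177-191) cells were Cct8 -0.69 ± 0.18, Tcp1 -0.63 ± 0.15, Cct5 -0.53 ± 0.11, Cct4 -0.43 ± 0.13 and Cct3 -0.36 ± 0.10. Cct2 (-0.46 ± 0.18) and Cct7 (-0.29 ± 0.15) did not pass, although another probe set of each did (Cct2 -0.47, adjusted p = 0.0089, and Cct7 -0.70, adjusted p = 0.00034). The other Cct7 probe set was also lower in K298E cells (-0.59, adjusted p = 0.011). Cct6a, the gene of a further subunit, which was not on the list, was at -0.57 ± 0.14 in Δ(177-191) cells (adjusted p = 0.002). The relative call of Cct4 had an adjusted p of 0.0515 without vector replicate 3 of 12 h. Its own fall was lost without Δ(177-191) replicates 1 or 3 of 0 h or 2 of 12 h (up to 0.0808), and that of Cct5 without replicate 3 of 0 h or 1 of 12 h (up to 0.101).

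Of the mitochondrial genes Hspd1 and Hspe1, which encode the HSP60 and HSP10 pair, and Trap1 rose in WT and vector cells. Hspd1 signals in WT cells were 2110, 2139 and 2370 at 0 h, 4611, 3605 and 3901 at 6 h, 4499, 2924 and 3038 at 9 h and 3395, 3252 and 3464 at 12 h. Hspd1 signals in K298E cells were 2545, 2348 and 2605 at 0 h, 3774, 2802 and 3583 at 6 h, 3104, 2974 and 3136 at 9 h and 2636, 3037 and 2818 at 12 h. In both lines all 9 treated arrays lay above every 0 h array. Hspd1 signals in Δ(177-191) cells were 2949, 2589 and 2655 at 0 h, 4040, 3604 and 4209 at 6 h, 3003, 3479 and 2826 at 9 h and 2433, 2817 and 2856 at 12 h. Hspd1 signals in vector cells were 2065, 2012 and 1994 at 0 h, 3374, 3472 and 3352 at 6 h, 3107, 3328 and 3376 at 9 h and 3183, 3207 and 3181 at 12 h. In vector cells all 9 lay above, and in Δ(177-191) cells the 6 h arrays were above and the 12 h arrays overlapped with 0 h. Hspd1 changed at 12 h by 0.61 ± 0.11 (adjusted p = 3.06e-05) in WT cells, 0.18 ± 0.11 in K298E and -0.02 ± 0.11 in Δ(177-191) cells and by 0.66 ± 0.11 (adjusted p = 2.61e-05) in vector cells. The relative change in Δ(177-191) cells was -0.67 ± 0.16 (adjusted p = 0.00146), from a start 0.43 ± 0.11 above vector cells. Hspe1, its neighbour on chromosome 1, rose by 0.44 ± 0.13 in WT and 0.47 ± 0.13 in vector cells and was at 0.16 ± 0.13 in K298E and -0.06 ± 0.13 in Δ(177-191) cells. Its adjusted p was 0.0504 in WT cells without WT replicate 2 of 0 h and up to 0.106 in vector cells without replicates 1 or 2 of 0 h or 1 of 12 h. Its relative change in Δ(177-191) cells was -0.53 ± 0.19 (adjusted p = 0.049). This call was lost without any 1 of 10 of the 12 arrays, all but vector replicate 3 of 0 h and Δ(177-191) replicate 3 of 12 h (up to 0.16). Its other probe set gave -0.54 (adjusted p = 0.006).

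Trap1 signals in WT cells were 517, 458 and 486 at 0 h, 523, 485 and 520 at 6 h, 639, 588 and 585 at 9 h and 584, 596 and 568 at 12 h. Trap1 signals in K298E cells were 493, 478 and 527 at 0 h, 493, 545 and 587 at 6 h, 614, 545 and 524 at 9 h and 553, 509 and 576 at 12 h. The WT arrays of 9 h and 12 h lay above every array of 0 h, whereas those of K298E cells overlapped with 0 h. Trap1 signals in Δ(177-191) cells were 548, 497 and 495 at 0 h, 483, 404 and 466 at 6 h, 606, 477 and 413 at 9 h and 420, 391 and 452 at 12 h. Trap1 signals in vector cells were 454, 440 and 433 at 0 h, 424, 479 and 523 at 6 h, 603, 582 and 573 at 9 h and 606, 564 and 572 at 12 h. The 9 h and 12 h vector arrays lay above those of 0 h, and in Δ(177-191) cells 8 of 9 treated arrays lay below. Trap1, which encodes the mitochondrial HSP90, changed at 12 h by 0.26 ± 0.09 (adjusted p = 0.0319) in WT cells, 0.13 ± 0.09 in K298E and -0.29 ± 0.09 (adjusted p = 0.0168) in Δ(177-191) cells and by 0.39 ± 0.09 (adjusted p = 0.002) in vector cells. The relative change in Δ(177-191) cells was -0.67 ± 0.13 (adjusted p = 0.000106). The rise in WT cells was lost without WT replicates 2 or 3 of 0 h or 1 or 2 of 12 h (adjusted p of up to 0.143), and the fall in Δ(177-191) cells without replicate 1 of 0 h or 2 of 12 h (up to 0.103).

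Dnaja3 signals in Δ(177-191) cells were 313, 302 and 334 at 0 h, 284, 294 and 280 at 6 h, 167, 208 and 195 at 9 h and 198, 178 and 184 at 12 h. Dnaja3 signals in WT cells were 292, 251 and 247 at 0 h, 334, 322 and 319 at 6 h, 241, 257 and 261 at 9 h and 278, 245 and 250 at 12 h. All 9 treated Δ(177-191) arrays lay below every 0 h array, and the WT arrays of 9 h and 12 h overlapped with those of 0 h after a rise at 6 h. Dnaja3 signals in K298E cells were 243, 257 and 255 at 0 h, 289, 281 and 327 at 6 h, 204, 227 and 189 at 9 h and 199, 222 and 213 at 12 h. Dnaja3 signals in vector cells were 235, 266 and 248 at 0 h, 324, 299 and 306 at 6 h, 247, 263 and 292 at 9 h and 269, 236 and 252 at 12 h. All arrays of K298E cells at 9 h and 12 h lay below those of 0 h, and all vector arrays of 6 h lay above. Dnaja3, the mitochondrial J protein gene, changed at 12 h by -0.03 ± 0.08 in WT cells, -0.25 ± 0.08 (adjusted p = 0.138) in K298E and -0.75 ± 0.08 (adjusted p = 9.57e-10) in Δ(177-191) cells and by 0.01 ± 0.08 in vector cells. The relative change in Δ(177-191) cells was -0.77 ± 0.12 (adjusted p = 2.46e-06). A dimmer probe set gave -0.37 (adjusted p = 0.11). With the mean of all its probe sets Dnaja3 also fell past the threshold in WT cells at 12 h, with the value given below. Hspa9 was the mitochondrial gene that was not lower in Δ(177-191) cells, at 0.18 ± 0.12 relative to vector at 12 h (adjusted p = 0.41).

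WT was then compared with each mutant directly, by the mean change over 6, 9 and 12 h, in which vector cells play no part. The mean change was higher in WT than in K298E cells for 8 genes and lower for 0 (8.46% and 9.1% of all genes). The largest differences were those of Hsph1 (0.65 ± 0.08, adjusted p = 5.19e-08), Cct8 (0.62 ± 0.15, adjusted p = 0.00279), Ahsa1 (0.52 ± 0.08, adjusted p = 2.69e-06) and Stip1 (0.46 ± 0.09, adjusted p = 0.000248). The others were Hspd1 0.40 ± 0.13, Cct3 0.32 ± 0.08, Chordc1 0.30 ± 0.08 and Fkbp4 0.28 ± 0.08. At 0 h every WT array of Hsph1, Cct8, Stip1 and Fkbp4 lay below every K298E array, and the WT mean of Ahsa1 was the lower. For these genes a higher start in K298E cells and a smaller response cannot be told apart by the change alone. The 0 h arrays of Hspd1 overlapped between these lines. Against Δ(177-191) cells the mean change was higher in WT for 15 genes and lower for 0 (14.3% and 11.1% of all genes). These were the same 8 and Cct5, Cct7, Cdc37, Dnaja3, Fkbp5, Tcp1 and Trap1. They included 6 of 7 HSP90 system genes, 5 of 7 CCT genes, 3 of 5 mitochondrial genes and 1 of 8 HSP70 genes. Fkbp5 had the largest difference (0.76 ± 0.10, adjusted p = 4.71e-08), followed by Fkbp4 (0.74 ± 0.08, adjusted p = 2.71e-09), Cct8 (0.71 ± 0.15, adjusted p = 0.000401) and Stip1 (0.70 ± 0.09, adjusted p = 9.32e-08). At 0 h every WT array of Fkbp5, Cct8, Stip1, Dnaja3, Hspd1 and Hsph1 lay below every Δ(177-191) array. For these genes, too, a higher start in Δ(177-191) cells and a smaller response cannot be told apart by the change alone. The 0 h arrays of Fkbp4 and the 0 h mean of Ahsa1 were instead higher in WT cells, and the Trap1 arrays overlapped. For Fkbp5 WT and K298E cells differed by 0.03 ± 0.10 with a 95% interval of -0.17 to 0.22, and for Dnaja3 by 0.17 ± 0.10 with one of -0.02 to 0.36. The lowest difference from Δ(177-191) cells among the 27 was that of Dnaja1 (-0.30 ± 0.14, adjusted p = 0.156). Against K298E cells the calls of Fkbp4 (without K298E replicate 3 of 0 h, adjusted p = 0.0571), Chordc1 (without WT replicate 1 of 0 h, 0.089) and Hspd1 (without WT replicates 1 or 2 or K298E replicates 1 or 3 of 0 h, up to 0.09) depended on single arrays. Against Δ(177-191) cells those of Chordc1 (without WT replicate 1 or Δ(177-191) replicate 2 of 0 h, up to 0.127) and Cct3 (without WT replicate 3 or Δ(177-191) replicates 1 or 3 of 0 h, up to 0.103) did so, as did that of Tcp1 (without WT replicates 1 or 3 of 0 h, 1 of 6 h or 1 of 9 h, any Δ(177-191) array of 0 h or replicate 3 of 9 h, up to 0.102). The count of 8 was 4, 3 and 4 without replicate 1, 2 and 3 of every group, and that of 15 was 8 without replicate 2.

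**Figure D5:**
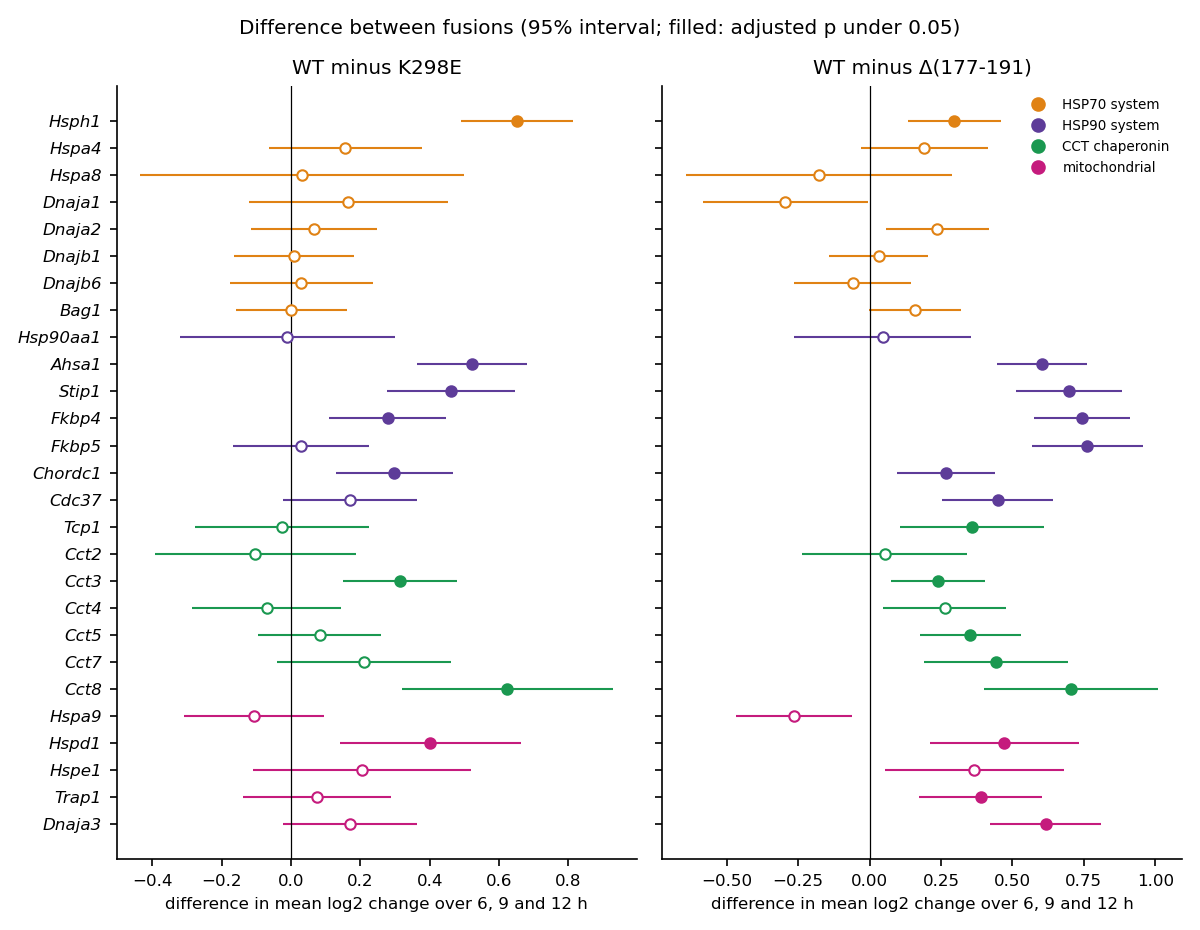
Difference in the mean change over 6, 9 and 12 h between WT and K298E cells (left) and between WT and Δ(177-191) cells (right) for 27 chaperone genes, on the log2(signal + 3) scale, with 95% intervals and filled points where the adjusted p was under 0.05. All filled points lie above 0, 8 on the left and 15 on the right, and on the right 14 of the 15 are genes of the HSP90 system, CCT or mitochondria.

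The lines differed before 4-HT as well. In each fusion line the share of listed genes that differed from vector cells, in either direction, was near that of all genes or a little above it. These shares were not compared by a test. At 0 h Stip1 (-0.32 ± 0.08, adjusted p = 0.00923) and Dnajb1 (-0.34 ± 0.07, adjusted p = 0.00275) were lower in WT than in vector cells and 0 genes were higher (2.82% and 2.92% of all genes). In K298E cells Hsph1 (0.54 ± 0.07, adjusted p = 5.13e-07) and Ahsa1 (0.37 ± 0.07, adjusted p = 0.000279) were higher and 0 lower (3.02% and 3.46% of all genes). In Δ(177-191) cells 6 were higher and 4 lower (13.3% and 15.3%). The 6 higher were Hspd1 0.43 ± 0.11, Hspe1 0.41 ± 0.13, Dnaja3 0.34 ± 0.08, Hspa4 0.31 ± 0.09, Hsph1 0.24 ± 0.07 and Bag1 0.24 ± 0.07, and the 4 lower were Chordc1 -0.42 ± 0.07, Fkbp4 -0.40 ± 0.07, Dnajb6 -0.36 ± 0.09 and Ahsa1 -0.23 ± 0.07. Single arrays decided the calls of Stip1 in WT cells (adjusted p of up to 0.0702 without WT replicate 2 or vector replicate 3). The same held in Δ(177-191) cells for Hspa4 (up to 0.0978 without replicate 1 of either line), Bag1 (up to 0.0873 without Δ(177-191) replicate 3 or vector replicate 1) and Hspe1 (up to 0.146 without Δ(177-191) replicate 3 or vector replicates 1 or 2). Without replicate 1, 2 or 3 of every group the count in WT cells was 0, 1 and 1. That in K298E cells was 1 without replicate 3, and that in Δ(177-191) cells 6 and 5 without replicates 2 and 3. With the mean of all probe sets, Ahsa1 was at -0.0731 in K298E and Fkbp4 at 0.11 in Δ(177-191) cells against vector cells at 0 h. The levels of Hsph1 and Ahsa1 in K298E cells at 12 h were 488 and 1249, against 603 and 1320 in vector cells. A change from a higher start and a smaller response cannot be told apart for these genes by the change alone.

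Over the 16 group means, the genes of the HSP90 system varied together (median Pearson r of 0.77 over 21 pairs), as did those of CCT (0.70 over 21 pairs), and HSP90 system genes with CCT genes (0.67 over 49 pairs). Pairs within the HSP70 system had a median r of 0.13 and pairs of mitochondrial genes of 0.25, against 0.02 for all pairs of genes with a mean signal of 250 or more. The closest pair was Ahsa1 and Chordc1 (r = 0.94), followed by Cct5 and Tcp1 (0.94), and the most opposed was Dnajb1 and Hspa9 (-0.76). The group means share lines and arrays, so these values only describe the 16 groups.

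Other genes of the same pathways, which were not on the list, are given here from lists written down with earlier results of these data known. Of all genes, 14.8% rose and 16.2% fell in WT cells at 12 h, 1.03% and 1.31% in K298E, 12.2% and 18.3% in Δ(177-191) and 7.69% and 9.76% in vector cells. Relative to vector cells 7.22% of all genes passed in WT, 3.38% were higher and 2.26% lower in K298E, and 9.97% higher and 12.4% lower in Δ(177-191) cells. Of 32 tested cochaperones of HSP70 and HSP90, 11 rose and 4 fell in WT cells at 12 h. In K298E cells 1 rose and 0 fell, in Δ(177-191) cells 4 rose and 10 fell, and in vector cells 6 rose and 0 fell. Relative to vector cells 1 was higher and 0 lower in WT, 0 higher and 3 lower in K298E, and 1 higher and 8 lower in Δ(177-191) cells. The lowest relative changes in Δ(177-191) cells were those of the HSP70 cochaperone gene Bag2 (-1.05 ± 0.16) and of Ppp5c, a phosphatase that binds HSP90 (-0.91 ± 0.12). The gene higher there was the HSP110 relative Hspa4l (1.52 ± 0.20). Ppp5c was the gene that was higher in WT (0.41 ± 0.12, adjusted p = 0.032). In K298E cells Hspbp1, an HSP70 exchange factor (-0.52 ± 0.13), and Nudc (-0.51 ± 0.11) were lower. Of 15 prefoldin and chaperonin partners 4 rose and 5 fell in WT cells, 0 changed in K298E and 3 rose and 2 fell in Δ(177-191) cells, and 2 rose and 2 fell in vector cells. Of 17 mitochondrial import partners and proteases 8 rose and 2 fell in WT cells, 0 changed in K298E and 4 rose and 3 fell in Δ(177-191) cells, and 3 rose and 2 fell in vector cells. Grpel1, the exchange factor of mortalin, rose in WT (0.78 ± 0.08), Δ(177-191) (0.37 ± 0.08) and vector cells (0.54 ± 0.08). Htra2, a mitochondrial protease gene, fell in Δ(177-191) cells (-1.14 ± 0.08). Of 5 tested small heat shock proteins 0 passed in limma in any line at 12 h, with 2 at an unadjusted p under 0.05 in vector cells and 0 in the other lines. In K298E cells 2 of the prefoldin and chaperonin partners and 1 of the mitochondrial partners had an unadjusted p under 0.05.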

How the data were processed

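The authors deposited 1 signal intensity per probe set and array on a linear scale, computed with MAS5 per the submitters' processing notes, which give no version. The values are whole numbers, and trimmed means of 100.0 to 100.02 (2% trimmed at each end) show a common scaling. Probe sets were named through the platform annotation updated with RefSeq names of assembly GRCm38.p6: 34945 name 1 gene, 932 several and 9160 none, beside 64 controls. Signals were taken as log2(signal + 3), and 27167 probe sets with a group mean above 4.09 on that scale, the median, were kept. In R 4.3.3, limma 3.58.1 (statmod 1.5.0) fitted the 16 groups with 32 residual degrees of freedom, a variance trend and Benjamini-Hochberg adjustment over all probe sets kept. Errors beside changes are standard errors, and folds of low genes are understated by the added constant. Each gene is represented by its brightest probe set. All members are named, those past the threshold with values, every array is given for the 8 with the largest difference past it, and other lists (HSP70 and HSP90 cochaperones, prefoldin and chaperonin partners, mitochondrial partners, small heat shock proteins, endoplasmic reticulum chaperones) give up to 2 rises and 2 falls. The members and lists were chosen with earlier results of these data known. The number of arrays limits the precision. Alternatives were added constants of 1, 12 and 32, filters, median centring, quantile normalization, array weights, fits of the compared arrays alone, a replicate block, no variance trend, the mean of all probe sets of a gene, and leaving out replicates or single arrays.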

Additional observations from a re-analysis of the deposited data

Results flagged for a closer look

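The mean change over 6, 9 and 12 h differed between lines in 23 limma tests, each of a difference between 2 changes. WT minus K298E was 0.65 for Hsph1, 0.62 for Cct8, 0.52 for Ahsa1, 0.46 for Stip1, 0.40 for Hspd1, 0.32 for Cct3, 0.30 for Chordc1 and 0.28 for Fkbp4. WT minus Δ(177-191) was 0.76 for Fkbp5, 0.74 for Fkbp4, 0.71 for Cct8, 0.70 for Stip1, 0.62 for Dnaja3, 0.60 for Ahsa1, 0.47 for Hspd1, 0.45 for Cdc37, 0.44 for Cct7, 0.39 for Trap1, 0.36 for Tcp1, 0.35 for Cct5, 0.30 for Hsph1, 0.27 for Chordc1 and 0.24 for Cct3. All are on the log2(signal + 3) scale and positive, meaning a higher change in WT cells. With 3 arrays in each group, single arrays far from the others were not looked for.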

How the results depend on the processing

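Counts of listed genes past the threshold moved by over 1.5 times most often when arrays were centred on their medians: 0 own changes passed in K298E, 6 in Δ(177-191) and 7 in vector cells, 1 relative change in K298E and 8 in Δ(177-191) cells, 5 differences between WT and K298E, and at 0 h 0 in WT cells, 0 in K298E and 2 in Δ(177-191) cells. That centring moved the median of all genes to 0.13, against -0.07, for the WT change, to 0.14, against -0.03, for its relative change, to 0.10 and 0.17, against -0.04 and -0.03, for WT minus K298E and minus Δ(177-191), and to -0.14, against 0.01, at 0 h. Genes higher and lower were then 2084 and 831, against 1885 and 2063, for the WT change, 290 and 85, against 488 and 434, for its relative change, 68 and 6, against 432 and 288, for K298E, 604 and 310, against 1080 and 1162, for WT minus K298E, 1768 and 423, against 1827 and 1415, for WT minus Δ(177-191), 70 and 134, against 373 and 360, for WT at 0 h and 37 and 136, against 386 and 441, for K298E at 0 h. No listed gene reversed under median centring or quantile normalization. The own change in K298E cells gave 2 with a filter at a mean signal of 100, 2 with quantile normalization and 2 with array weights. Array weights gave 8 relative changes in K298E cells and 5 differences from vector cells at 0 h in that line. The mean of all probe sets of a gene gave 3 relative changes in K298E and 11 in Δ(177-191) cells and 1 difference at 0 h in K298E cells. For the own change in WT cells it gave 10 higher and 2 lower (Dnajb6 at -0.26 and Dnaja3 at -0.48), against 12 higher and 0 lower. WT minus Δ(177-191), with 15 higher and 0 lower, had 1 lower gene under 4 settings: Dnajb6 at -0.27 with the mean of all probe sets (9 higher), and Hspa9 at -0.26 with a filter at 100 (17 higher), -0.26 with quantile normalization (20 higher) and -0.28 with array weights (15 higher). The mean of all probe sets reversed Ahsa1 in K298E cells (relative change 0.0621, 0 h -0.0731), Fkbp4 at 0 h in Δ(177-191) cells (0.11) and Dnajb6 between WT and K298E (-0.34), where further probe sets differ from the brightest one. Fits of the arrays compared alone gave 4 differences at 0 h in K298E and 17 in Δ(177-191) cells. The cause of these shifts was not tested.

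Leaving out replicates or single arrays gave own changes of 10 to 13 in WT cells, 0 to 1 in K298E, 6 to 11 in Δ(177-191) and 8 to 13 in vector cells. Relative changes were 0 to 0 for WT, 2 to 5 for K298E and 9 to 17 for Δ(177-191) cells, and WT differed from K298E in 3 to 8 and from Δ(177-191) in 8 to 16 genes. At 0 h counts were 0 to 2 for WT, 1 to 3 for K298E and 5 to 10 for Δ(177-191) cells. In 4698 such values 198 calls were lost, 20 gained and 0 reversed. Same-numbered arrays of different groups had a median r of deviations near 0 (0.02, against -0.01 for other numbers, with 109 of 360 pairs over 0.1), so the numbers were not taken as pairs. Single pairs reached 0.45, and 24 of 48 arrays correlated best with their own number, more than an even spread over 3 numbers would give. An effect shared by some same-numbered arrays was not tested beyond the block that follows. A replicate block gave 12 own changes in WT cells, 1 in K298E, 11 in Δ(177-191) and 13 in vector cells, 0 relative changes in WT cells, 4 in K298E and 17 in Δ(177-191) cells, 8 and 15 differences of WT from K298E and Δ(177-191), and 2, 2 and 11 genes at 0 h in WT, K298E and Δ(177-191) cells, losing Stip1 in K298E and Hspe1 in Δ(177-191) cells. Added constants of 1, 12 and 32 changed 0 of 348 calls each. Signals below about 14 set the lower limit of what could be compared.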

Other observations

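Chaperones of the endoplasmic reticulum, which serve secreted and membrane proteins and rise with the unfolded protein response, had 15 tested genes. In Δ(177-191) cells 6 rose and 0 fell at 12 h (12.2% and 18.3% of all genes), while 3 rose and 2 fell in WT (14.8% and 16.2%), 0 rose and 2 fell in K298E (1.03% and 1.31%) and 1 rose and 2 fell in vector cells (7.69% and 9.76%). Relative to vector cells 6 were higher and 0 lower in Δ(177-191) (9.97% and 12.4% of all genes), 2 higher and 1 lower in WT (7.22% in either direction) and 1 higher and 0 lower in K298E cells (3.38% and 2.26%). The J protein gene Dnajb9 had a relative change of 1.09 ± 0.17 in Δ(177-191) cells (limma, adjusted p = 2.3e-06), of which 0.54 ± 0.12 was its own rise and the rest a fall in vector cells of -0.54 ± 0.12. Herpud1, a membrane protein gene of the degradation pathway, rose in Δ(177-191) cells (0.41 ± 0.09) and fell in WT (-0.91 ± 0.09), K298E (-0.33 ± 0.09) and vector cells (-0.42 ± 0.09), and its mean change in WT was below that in Δ(177-191) cells by -1.58 ± 0.11 (adjusted p = 3.53e-15). Hsp90b1, the HSP90 of this compartment, rose in Δ(177-191) cells (0.58 ± 0.09), where its cytosolic relative Hsp90aa1 did not pass. Dnajc3, another J protein gene, rose in WT (0.68 ± 0.08), Δ(177-191) (0.87 ± 0.08) and vector cells (0.37 ± 0.08).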
